A study of Saccharomyces cerevisiae with 24 samples.

Results

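The comparison of the SEF1 deletion strain (sef1) with the wild type (WT) during growth on glucose was measured on 8 of the 24 arrays of the series, chosen by their sample titles: 4 arrays of sef1 in YPD and 4 of WT in YPD. Both strains are haploid Saccharomyces cerevisiae of the W303 background and of mating type a. They share mutant alleles of HIS3, TRP1, URA3, ADE2, LEU2 and CAN1, as given in the study's strain list, and sef1 additionally carries the drug resistance cassette NatMX4 in place of SEF1 according to the same list. The ends of the deletion are not given with certainty in the sources used here. Each strain was a single strain, so the 4 samples of a group are replicate cultures of it. The labels give them as biological replicates, and the p-values measure the spread between such cultures. YPD is rich medium with glucose, to which adenine and tryptophan had been added. Cultures started at an OD600 of 0.2 from overnight YPD cells and were harvested in early log phase after 5.5 h at 30 °C, and oligo-dT primed, Alexa Fluor labelled cDNA was hybridised to one-colour arrays with 1 probe per gene. The same strains in YPGly, where glycerol replaces glucose, gave 8 further arrays that are used below as separate samples.

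Sef1 is a fungal transcription factor of the zinc cluster family. In the pathogenic yeast Candida albicans it activates genes of iron uptake. Budding yeast growing on glucose ferments most of it, and in that state genes for respiration, for the use of acetate and fatty acids and for gluconeogenesis are held low by glucose repression. The tricarboxylic acid (TCA) cycle runs in the mitochondria, and the study asked which of its genes, among others, depend on Sef1.

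Levels are log2 intensities minus the 75th percentile of the array, so 0 stands for the brightness of the gene at that percentile and a difference of 1 is 2-fold. The 75th percentile lay between 9177 and 16182 intensity units on the sef1 arrays and between 8927 and 14413 on the WT arrays. Both strains lay on 1 slide, sef1 in its row 2 and WT in its row 1, so strain and row cannot be told apart. Negative control spots read 11.2 to 13.4 units (medians per array) on the sef1 arrays and 4.80 to 7.19 on the WT arrays, and 91.5% to 94.1% of probes on the sef1 arrays, against 95.0% to 96.7% on the WT arrays, were well above background. In YPGly the rows were the other way round (sef1 in row 1, 4.67 to 7.76 units; WT in row 2 of another slide, 9.26 to 13.1 units). All 7 genes specific to mating type a were well above background on all 8 arrays, whereas of 4 genes specific to mating type alpha the alpha-factor gene MF(ALPHA)1 was so on 1 array of each strain and MF(ALPHA)2 on 0 arrays of sef1 and 1 of WT. STE3 and SAG1 of that list were above background on all 8 arrays, at 170 and 565 units in sef1 and 203 and 677 units in WT.

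A gene was called when its limma p-value, adjusted over the 5641 genes tested, was below 0.05 and its level differed 1.5-fold or more. In sef1 32 genes were called higher (0.567% of the genes tested) and 6 lower (0.106%), together 38 genes (0.674%). The adjusted p alone was passed by 460 genes (8.15%), 279 of them higher (4.95%) and 181 lower (3.21%). Most of these differences were small: the median size was 0.35 (1.27-fold) among the higher and 0.28 (1.21-fold) among the lower genes, and a 2-fold difference was reached by 4 called genes that were higher (YBL065W, UPS2, STR3 and HXT7) and 2 that were lower (SEF1 and ADY2). Of the 38 called genes, 36 had no overlap between the 4 sef1 and the 4 WT arrays, a separation that 19.1% of all tested genes showed, and SPB1 and SRO9 overlapped. The arrays measured pooled RNA of whole cultures, so a lower level per cell and fewer cells with the transcript cannot be told apart.

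**Figure D1:**
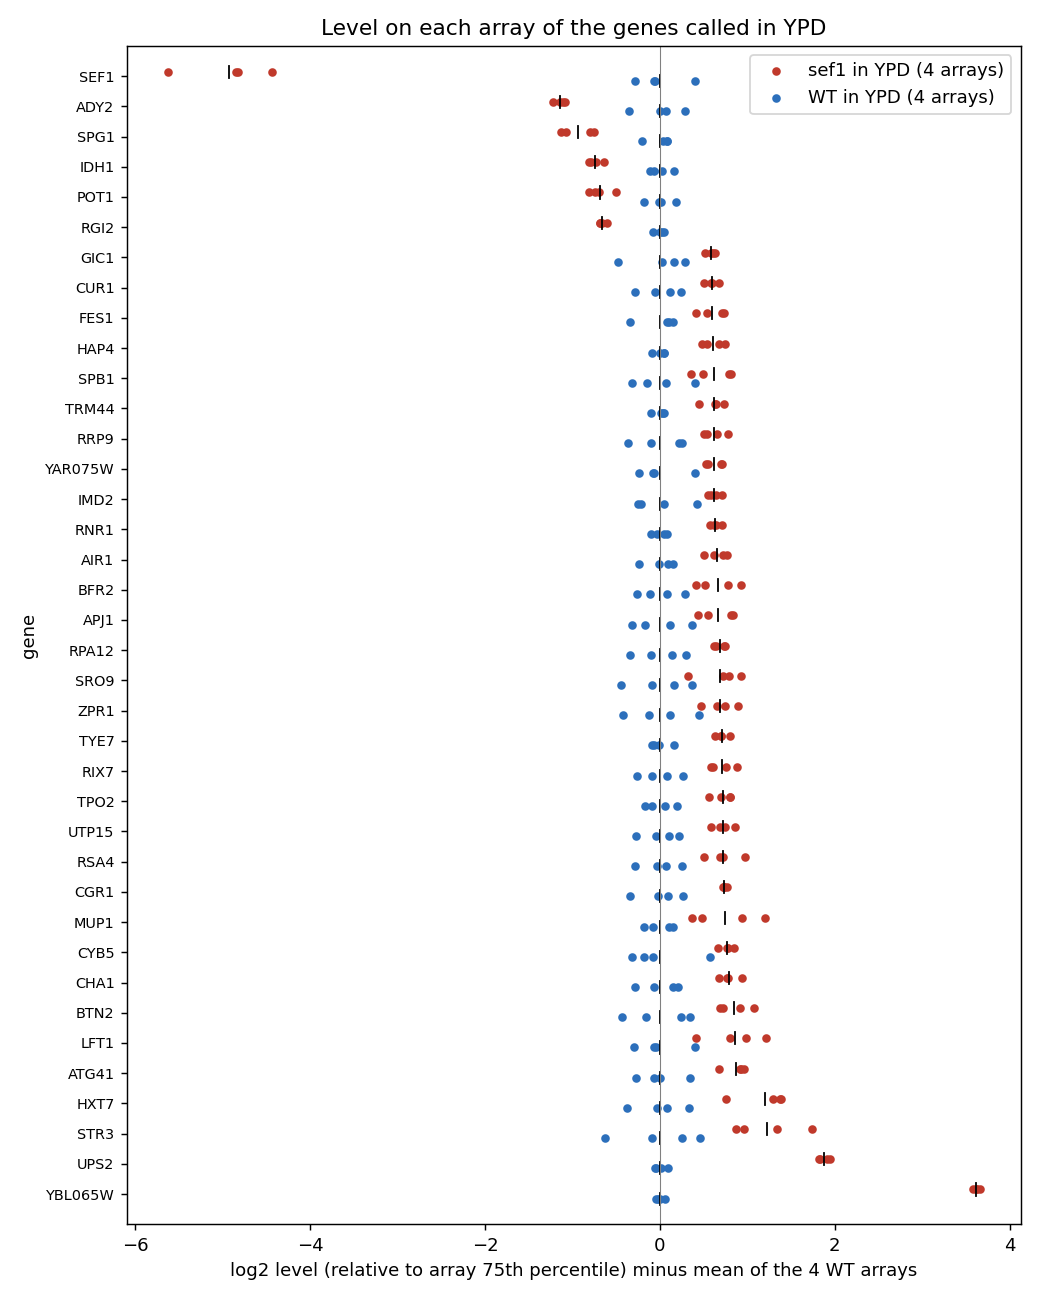
Level of each of the 38 called genes on each array, as log2 level minus the mean of the 4 WT arrays. Red points are the 4 sef1 arrays and blue points the 4 WT arrays in YPD, and black ticks are group means. SEF1 lies far to the left and YBL065W far to the right, and most other called genes lie between 0.59 and 0.87 above WT.

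**Figure D2:**
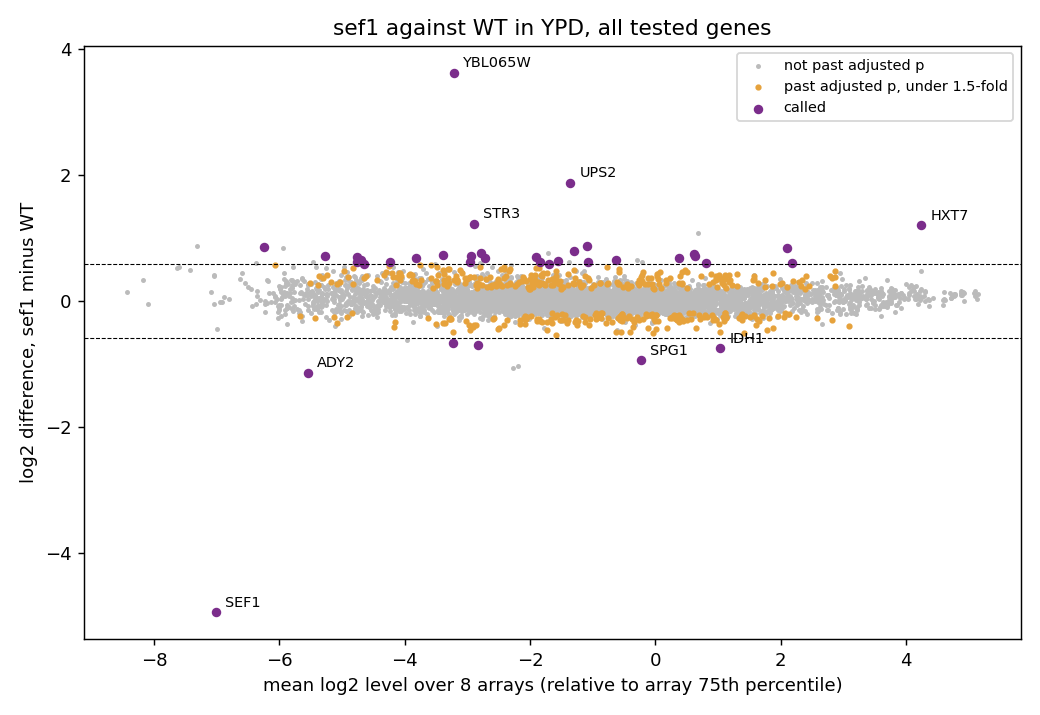
Log2 difference (sef1 minus WT) against mean log2 level for the 5641 tested genes in YPD. Purple points are the 38 called genes, orange points passed the adjusted p but not the 1.5-fold minimum (dashed lines), and grey points did not pass the adjusted p.

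SEF1 itself (YBL066C, chromosome II), the deleted gene, was at the background in sef1 and detected in WT. Its levels were −9.36, −8.98, −9.39 and −10.17 in sef1, against −4.60, −4.60, −4.83 and −4.13 in WT. None of the 4 sef1 arrays had a SEF1 signal well above background, so only a bound can be given. With each sef1 array set to its dimmest probe that was well above background, the transcript was at least 8.14-fold lower in sef1 (limma adjusted p = 4.2e-06 for the measured values). In WT the gene was a weak signal of about 536 intensity units.

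The largest increase was next to SEF1. YBL065W, an open reading frame that its systematic name places beside SEF1 on the opposite strand and that is named here only by that identifier, had levels of −1.39, −1.44, −1.41 and −1.36 in sef1 and −5.04, −4.96, −5.02 and −5.06 in WT. The strains differed by 3.62 ± 0.05 (SE), or 12.3-fold (adjusted p = 6.3e-11), and the SD between arrays was 0.03 in sef1 and 0.04 in WT. Beyond it, PRX1 (a mitochondrial peroxiredoxin) differed by −0.19 ± 0.07 (adjusted p = 0.11), and on the other side of SEF1 UBP13 (a ubiquitin protease) differed by 0.07 ± 0.07 (adjusted p = 0.54) and PRS4 (a phosphoribosyl pyrophosphate synthetase) by 0.12 ± 0.09 (adjusted p = 0.44). Thus only 1 of the 4 measured neighbours passed the test in YPD. Transcription across the inserted cassette was not measured, and its part in the YBL065W signal was not tested. No chromosome stood apart, as the medians of the 16 nuclear chromosomes ran from 0.00 to 0.05 beside 0.03 over all genes.

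The 5 genes called lower besides SEF1 were genes for using carbon sources other than glucose or genes known from respiring and resting cells. ADY2, which encodes an acetate transporter of the plasma membrane, had levels of −6.21, −6.12, −6.06 and −6.08 in sef1 and −4.98, −5.34, −4.70 and −4.91 in WT. It was thus 2.20-fold lower in sef1 (−1.14 ± 0.12, adjusted p = 0.0020), at intensities of 157 units in sef1 and 394 in WT, where the background weighs most. With the normexp background correction the ADY2 difference was −0.62. SPG1, a gene needed in stationary phase, read −0.56, −0.52, −0.89 and −0.84 in sef1, against 0.32, 0.32, 0.27 and 0.03 in WT. The SPG1 difference was −0.94 ± 0.10, or 1.92-fold (adjusted p = 0.0026).

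IDH1 encodes a subunit of the mitochondrial NAD-dependent isocitrate dehydrogenase of the TCA cycle. It read 0.68, 0.62, 0.59 and 0.77 in sef1 and 1.34, 1.43, 1.29 and 1.57 in WT, a difference of −0.74 ± 0.07, or 1.67-fold (adjusted p = 0.0013). Its partner subunit gene IDH2 went the other way and was under the 1.5-fold minimum. Levels of IDH2 were 2.09, 2.15, 2.11 and 2.05 in sef1, against 1.62, 1.72, 1.73 and 1.56 in WT (0.44 ± 0.06, adjusted p = 0.0062). Neither gene of this enzyme overlapped between the strains in YPD, a separation that 19.1% of all tested genes showed. In YPGly IDH2 lay on the same side as IDH1, with −0.27 ± 0.11 (adjusted p = 0.21) beside −0.48 ± 0.10. The YPGly difference of IDH2 minus its YPD difference was −0.71 (limma adjusted p = 0.014), with the media on different slides.

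POT1, the thiolase of peroxisomal fatty acid oxidation, had levels of −3.23, −3.00, −3.19 and −3.31 in sef1 and −2.31, −2.48, −2.51 and −2.67 in WT (−0.69 ± 0.09, 1.61-fold, adjusted p = 0.0062). RGI2, a gene induced in respiratory growth, read −3.58, −3.59, −3.50 and −3.57 in sef1, against −2.89, −2.98, −2.86 and −2.87 in WT (−0.66 ± 0.05, 1.58-fold, adjusted p = 0.00025). Replicates of RGI2 were tight, with an SD of 0.04 in sef1 and 0.05 in WT.

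UPS2 was the most increased gene away from the SEF1 locus. Its product carries phosphatidylserine across the mitochondrial intermembrane space for the synthesis of phosphatidylethanolamine. UPS2 levels were −0.47, −0.39, −0.35 and −0.46 in sef1 and −2.29, −2.21, −2.36 and −2.34 in WT. The gene was 3.68-fold higher in sef1 (1.88 ± 0.06, adjusted p = 7.2e-08). Of the 16 tested genes of mitochondrial phospholipid metabolism, UPS2 was the only one called. Over all tested genes 0.674% were called and 8.15% passed the adjusted p. CLD1, a cardiolipin-specific lipase, passed the adjusted p with −0.30, and the median of the list was −0.02.

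Genes for sulfur amino acids were among those higher in sef1. STR3, which encodes cystathionine beta-lyase, read −2.63, −2.54, −1.77 and −2.17 in sef1, against −3.25, −3.59, −3.04 and −4.14 in WT. The difference was 1.23 ± 0.25 (2.34-fold, adjusted p = 0.025), with the largest SE among the called genes. The methionine permease gene MUP1 read 0.60, 0.72, 1.44 and 1.18 in sef1 and 0.34, 0.06, 0.39 and 0.16 in WT (0.75 ± 0.17, 1.68-fold, adjusted p = 0.033). Of the 35 tested genes of sulfur amino acid metabolism and transport, 8 passed the adjusted p and all 8 were higher in sef1, among them the sulfate permease SUL2 (0.48 ± 0.12) and the aspartate kinase HOM3 (0.47 ± 0.09). As a background, 4.95% of all tested genes passed the adjusted p as higher. The list's median difference was 0.26, with 33 of 35 members above 0. Over all 5641 tested genes the median was 0.03, and 3238 were above 0. In YPGly the same list had a median of 0.19, and 7 members passed, all higher. There 124 of all 5641 tested genes passed as higher, and strain and slide cannot be told apart. Among the genes named here only MUP1 passed in YPGly (0.42 ± 0.09). STR3 (0.28 ± 0.07), SUL2 (−0.04 ± 0.15) and HOM3 (−0.35 ± 0.12) did not. Neither STR3 nor MUP1 was called in the methods' t-test or without any 1 of sef1 replicates 2, 3 and 4 or WT replicate 2.

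The 15 tested hexose transporters and sensors had a median difference of −0.17, with 4 of them above 0, and HXT7 was the 1 called. HXT7, a high-affinity glucose transporter gene and 1 of the brightest probes, had levels of 5.03, 5.02, 4.93 and 4.40 in sef1 and 3.73, 3.61, 3.98 and 3.26 in WT (1.20 ± 0.17, 2.30-fold, adjusted p = 0.0081). Replicate 4 lay lowest in both strains. HXT7 is near-identical in sequence to HXT6, and a probe may read both; the HXT6 probe differed by 0.49 ± 0.16 (adjusted p = 0.087). In contrast, HXT2 (−0.40 ± 0.09), HXT17 (−0.35) and HXT5 (−0.33) passed the adjusted p in the lower direction, which made 5 of the 15 lower and 1 higher past that test. Among all 5641 tested genes 3.21% passed as lower and 4.95% as higher, and 3238 were above 0. Among 16 regulators of glucose repression and respiration, HAP4, the activating subunit of the HAP complex that drives respiratory genes, was called higher with levels of 1.04, 1.25, 0.98 and 1.17 in sef1 and 0.50, 0.55, 0.55 and 0.41 in WT (0.61 ± 0.07, 1.52-fold, adjusted p = 0.0035). In the same list CAT8, an activator of gluconeogenic genes, fell by 0.43 and MIG3, a repressor, fell by 0.42.

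Ribosome synthesis supplied the largest block of called genes. Grouped after their values were seen, 8 of the 32 genes called higher act in making ribosomes: UTP15, RRP9 and BFR2 in the small subunit processome, RIX7, RSA4, CGR1 and SPB1 in the large subunit pathway, and RPA12 as a subunit of RNA polymerase I. Their differences lay between 0.61 and 0.74 (1.53-fold to 1.67-fold), with adjusted p-values from 0.0088 to 0.045. CGR1 read −3.03, −3.03, −3.00 and −3.05 in sef1 and −4.11, −3.49, −3.78 and −3.67 in WT (0.74 ± 0.11). For RSA4 the levels were −4.66, −4.92, −5.13 and −4.95 in sef1, against −5.92, −5.39, −5.67 and −5.57 in WT (0.72 ± 0.12). UTP15 read −2.73, −2.56, −2.63 and −2.45 in sef1 and −3.58, −3.09, −3.36 and −3.21 in WT (0.72 ± 0.10). RIX7 read −4.51, −4.23, −4.54 and −4.36 in sef1 and −5.38, −4.85, −5.04 and −5.21 in WT (0.71 ± 0.11). The WT arrays were spread more widely than the sef1 arrays in these 4 genes, and WT replicate 1 was the lowest array in each. The wider spread held over all tested genes too, with a median SD of 0.113 in WT and 0.077 in sef1. Of the 8 genes CGR1 and UTP15 kept their call in every alternative fit. The other 6 lost it without sef1 replicate 4, and SPB1, RRP9, BFR2, RPA12 and RSA4 also lost it in the methods' t-test.

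The same direction held in the list of ribosome biogenesis genes taken by name (UTP, NOP, NOC, RRP, DBP and similar). Of its 69 members, all tested, 9 passed the adjusted p and all 9 were higher in sef1, 2 of them called, and 64 had a difference above 0. UTP25 (0.55 ± 0.10) and the helicase gene DBP7 (0.44 ± 0.09) were among the 9. The list's median was 0.22, beside 0.03 over all genes, and it lay between 0.17 and 0.29 under the alternatives tried. Cytosolic ribosomal protein genes had a median of 0.15 (0.075 to 0.21 under the alternatives tried), with 134 of 138 above 0. Of these, 7 passed the adjusted p, all higher, among them RPS9A (0.54 ± 0.10) and RPL7B (0.52 ± 0.12), a share near the 4.95% of all tested genes that passed as higher. Mitochondrial ribosomal protein genes lay on the other side. All 56 had differences below 0 with a median of −0.18, and 12 passed the adjusted p, among them MRPL15 (−0.33 ± 0.08) and MRPS17 (−0.32 ± 0.06), whereas none of them reached the 1.5-fold minimum. Genes of ergosterol synthesis were all 20 above 0 (median 0.17), and 4 passed, all higher. For all these lists the background is 4.95% of all tested genes passing as higher and 3.21% as lower. Above 0 were 3238 of the 5641 tested genes.

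**Figure D3:**
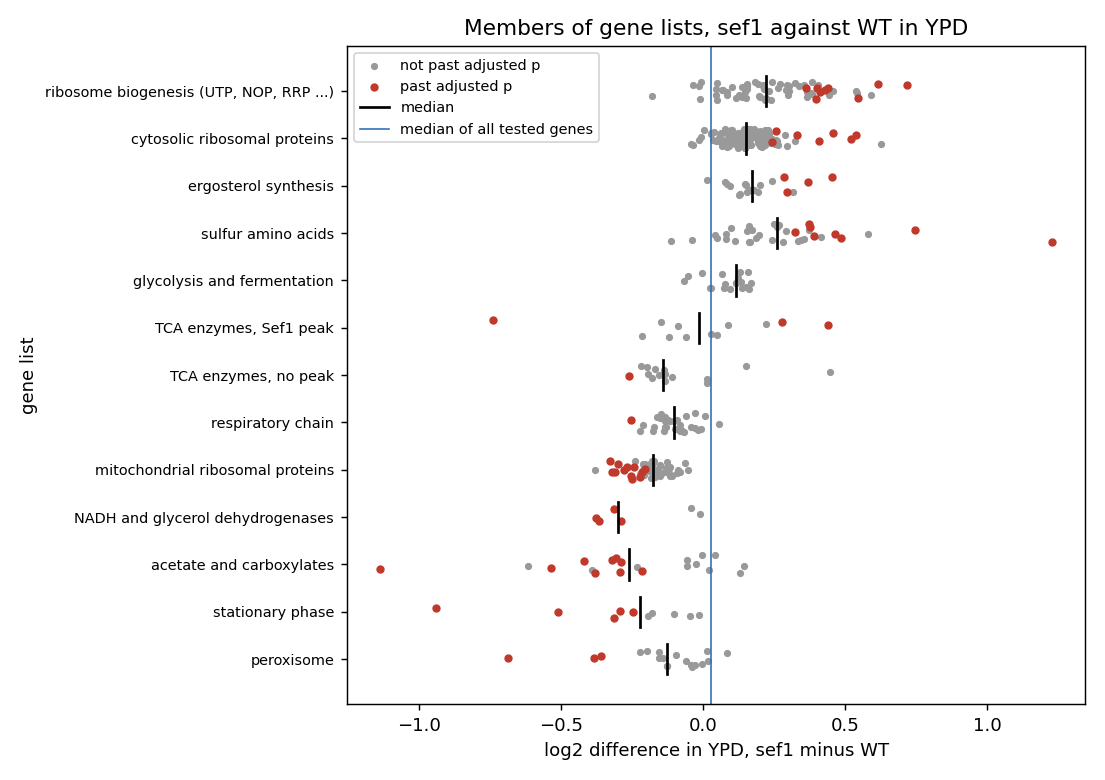
Log2 differences (sef1 minus WT in YPD) of the tested members of 13 gene lists, 1 point per gene. Red points passed the adjusted p over all genes, black ticks are list medians and the blue line is the median of all tested genes (0.03). Ribosome biogenesis genes lie mostly right of that line and mitochondrial ribosomal protein genes left of it.

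Genes of protein folding and sorting were called higher in a further group of 5, again grouped after their values were seen: BTN2 and CUR1, which sort misfolded proteins, FES1, a nucleotide exchange factor of Hsp70, the Hsp40 homologue APJ1, and ZPR1, which acts in the folding of an elongation factor. Their differences ran from 0.59 to 0.85. BTN2 read 2.37, 2.75, 2.40 and 2.59 in sef1 and 1.25, 1.92, 1.52 and 2.02 in WT (0.85 ± 0.17, 1.80-fold, adjusted p = 0.022). None of these 5 was called in the methods' t-test or without any 1 of sef1 replicates 2, 3 and 4. The general heat shock protein list had a median of 0.13, with 16 of 22 members above 0. Of its 22 tested HSP, SSA, SSB and SSE genes 1 passed the adjusted p as higher (SSA2, 0.39 ± 0.09) and 2 as lower (HSP12, −0.26, and HSP33, −0.18), and none was called. The shares over all tested genes were 4.95% higher and 3.21% lower, and 3238 of the 5641 were above 0.

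The remaining called genes were of mixed function. ATG41, a gene of autophagy, had levels of −0.60, −0.56, −0.85 and −0.62 in sef1 and −1.81, −1.18, −1.60 and −1.52 in WT (0.87 ± 0.12, 1.83-fold, adjusted p = 0.0081). CHA1, the catabolic serine and threonine deaminase, read −1.01, −0.92, −0.92 and −0.76 in sef1, against −1.98, −1.55, −1.76 and −1.48 in WT (0.79 ± 0.11, 1.73-fold, adjusted p = 0.0077). TPO2, a polyamine exporter, read 0.82, 1.07, 0.96 and 1.07 in sef1 and 0.18, 0.33, 0.46 and 0.09 in WT (0.72 ± 0.09, 1.64-fold, adjusted p = 0.0061). These 3 genes were called in every alternative fit at the 1.5-fold minimum.

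CYB5, cytochrome b5, had levels of −2.40, −2.32, −2.40 and −2.50 in sef1 and −3.49, −2.60, −3.35 and −3.24 in WT (0.77 ± 0.16, adjusted p = 0.027), with WT replicate 2 near the sef1 arrays. LFT1 (YML037C) was the dimmest gene called higher, at 193 units in sef1 and 122 in WT. Its levels were −5.69, −5.47, −5.87 and −6.26 in sef1, against −6.72, −6.97, −6.27 and −6.74 in WT (0.85 ± 0.18, adjusted p = 0.027). The others were TYE7, an activator of glycolytic genes (0.71 ± 0.07), RNR1, the large subunit of ribonucleotide reductase (0.64 ± 0.06), IMD2, an IMP dehydrogenase (0.62 ± 0.13), YAR075W (0.62 ± 0.12), AIR1 and TRM44 of RNA processing (0.65 ± 0.09 and 0.61 ± 0.07), the RNA-binding SRO9 (0.69 ± 0.18) and the Cdc42 effector GIC1 (0.59 ± 0.14). YAR075W lies in sequence close to IMD2, and their probes may read each other's transcript. Just inside the fold minimum stood GIC1, CUR1, FES1 and HAP4 (0.59 to 0.61), and just outside it, past the adjusted p, HO, SOF1, BMT6 and REX4 (0.57 to 0.55, all higher in sef1).

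Members of the lists for acetate and other carboxylates, NADH oxidation and the stationary phase that passed the adjusted p were all lower in sef1. Of all tested genes 3.21% passed the adjusted p as lower. Of 20 tested genes for acetate and carboxylate use, 9 passed the adjusted p, all lower, with a list median of −0.26. JEN1, the lactate and pyruvate permease, read −1.90, −1.76, −2.05 and −1.70 in sef1 and −1.20, −1.37, −1.29 and −1.41 in WT (−0.54 ± 0.08, adjusted p = 0.011). Of 10 stationary phase genes 5 passed, all lower, SPG4 with −0.51 ± 0.07. Of 6 genes that pass electrons from NADH to the respiratory chain or make glycerol, 4 passed and all 4 were lower: the external dehydrogenases NDE1 (−0.38 ± 0.09) and NDE2 (−0.37 ± 0.08), the glycerol-3-phosphate dehydrogenase GUT2 (−0.31 ± 0.07) and the internal dehydrogenase NDI1 (−0.29 ± 0.05). Each of these 4 differences was under the 1.5-fold minimum. Of 19 peroxisomal genes 3 passed, all lower, among them POT1 and the dienoyl-CoA reductase SPS19 (−0.38), with a list median of −0.13.

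The TCA cycle genes that passed the adjusted p, a test passed by 8.15% of all tested genes, went both ways: 3 of 12 with a peak and 1 of 16 without. Among the 12 TCA enzyme genes to which the study's ChIP-seq assigned a Sef1 peak, IDH1 was lower, IDH2 and FUM1 (0.28 ± 0.07) passed the adjusted p as higher, and the list median was −0.02. Among the 16 without a peak SHH4 passed (−0.26), and their median was −0.14. Of 32 respiratory chain genes 1 passed (RIP1, −0.25). In glyoxylate shunt and gluconeogenesis, FBP1 (−0.37 ± 0.08) and ICL1 (−0.30 ± 0.07) passed among 7 genes. None of 19 glycolysis and fermentation genes did (median 0.11, and −0.00 after quantile normalization).

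Iron uptake genes, the targets of Sef1 in Candida albicans, showed 1 of 22 tested members past the adjusted p, the low-affinity iron transporter FET4 (0.23 ± 0.05), with a list median of 0.02. The adjusted p was passed by 8.15% of all tested genes, 4.95% as higher. Among 8 iron regulators and response genes 3 passed, all higher and all under 1.5-fold: TIS11 (0.46 ± 0.09) and CTH1 (0.30 ± 0.07), which destabilise mRNAs when iron is scarce, and the activator AFT2 (0.28 ± 0.06). The study listed 6 candidate genes and took NDE1 and AFT2 forward for deletion. Values of NDE1 and AFT2 are given above. The other 4 candidates did not pass in YPD: ECM13 (0.03 ± 0.09), PEX21 (0.08 ± 0.06), MIG2 (−0.03 ± 0.10) and CIT3 (−0.15 ± 0.05, adjusted p = 0.079). The smallest adjusted p of ECM13, PEX21 and MIG2 in YPD was 0.37. In YPGly, where strain and slide cannot be told apart, MIG2 was called lower (−0.78 ± 0.19). CIT3 (−0.50 ± 0.10) and ECM13 (0.46 ± 0.10) passed the adjusted p there, as did 4.01% of all tested genes. NDE1 (−0.13 ± 0.16), AFT2 (0.11 ± 0.09) and PEX21 (0.03 ± 0.07) did not pass in YPGly.

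Set beside Sef1 binding, 10 of the 38 called genes carried a ChIP-seq peak that the study assigned to them in YPD: UPS2, ATG41, BTN2, MUP1, TPO2, TYE7, ZPR1 and HAP4, which were higher in sef1, and IDH1 and RGI2, which were lower. That is 2.07% of the 483 tested genes with a peak, beside 0.543% of the 5158 without one. Of the 50 tested genes with the strongest peaks 4 were called (8%), namely UPS2, HAP4, IDH1 and RGI2. The median difference was 0.05 over genes with a peak and 0.03 over those without. The 28 called genes without a peak included ADY2, SPG1, POT1, STR3 and HXT7.

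The YPGly arrays, none of which entered the YPD fit, gave the same comparison in glycerol. There the strains lay on different slides, which cannot be told apart from strain. Of the 32 genes higher in YPD 4 were called higher in YPGly (0.408% of all tested genes were), namely YBL065W (4.23 ± 0.08), UPS2 (1.60 ± 0.14), IMD2 (0.69 ± 0.13) and CYB5 (0.62 ± 0.07). Of the 6 lower genes SEF1 was called lower in YPGly (0.39% of all tested genes were), at least 32.9-fold. In YPGly 4.01% of all tested genes passed the adjusted p, and 9 of the 38 did so in their YPD direction, which adds HAP4 (0.54 ± 0.06), MUP1 (0.42 ± 0.09), IDH1 (−0.48 ± 0.10) and POT1 (−0.53 ± 0.08) to the 5 named. TPO2 (−0.30 ± 0.07) and LFT1 (−0.50 ± 0.11) passed in the opposite direction. The median YPGly difference was 0.19 over the 32 higher genes and −0.43 over the 6 lower genes, against YPD medians of 0.70 and −0.84. The YPD medians come from the arrays on which these genes were chosen.

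The 8 called ribosome synthesis genes had YPGly differences from 0.03 to 0.30, none past the adjusted p. In the list of 69 ribosome biogenesis genes, however, 8 passed, all higher, with a median of 0.24. Of all 5641 tested genes 124 passed as higher in YPGly, where strain and slide cannot be told apart. The mitochondrial ribosomal protein genes had a YPGly median of 0.00, with none past the adjusted p. The acetate and carboxylate genes had −0.06, also with none past it, and ADY2 itself read −0.33 ± 0.16 (adjusted p = 0.29).

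Whether the sef1 difference itself differed between the media was tested with an interaction term fitted to the 16 YPD and YPGly arrays, whose media lay on different slides. It was called for 10 of the 38 genes, and 0.886% of all tested genes were called. The 38 genes were chosen for their differences on YPD arrays that also enter this term, so these shares are not a like comparison. For TPO2 (−1.02, adjusted p = 0.00023), TYE7 (−0.84, adjusted p = 0.00064), LFT1, ATG41, CUR1, RNR1, GIC1 and RPA12 the YPGly difference was below the YPD difference, for YBL065W it was above it (0.61, adjusted p = 0.0023), and for SEF1 it rests on signals below background.

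**Figure D4:**
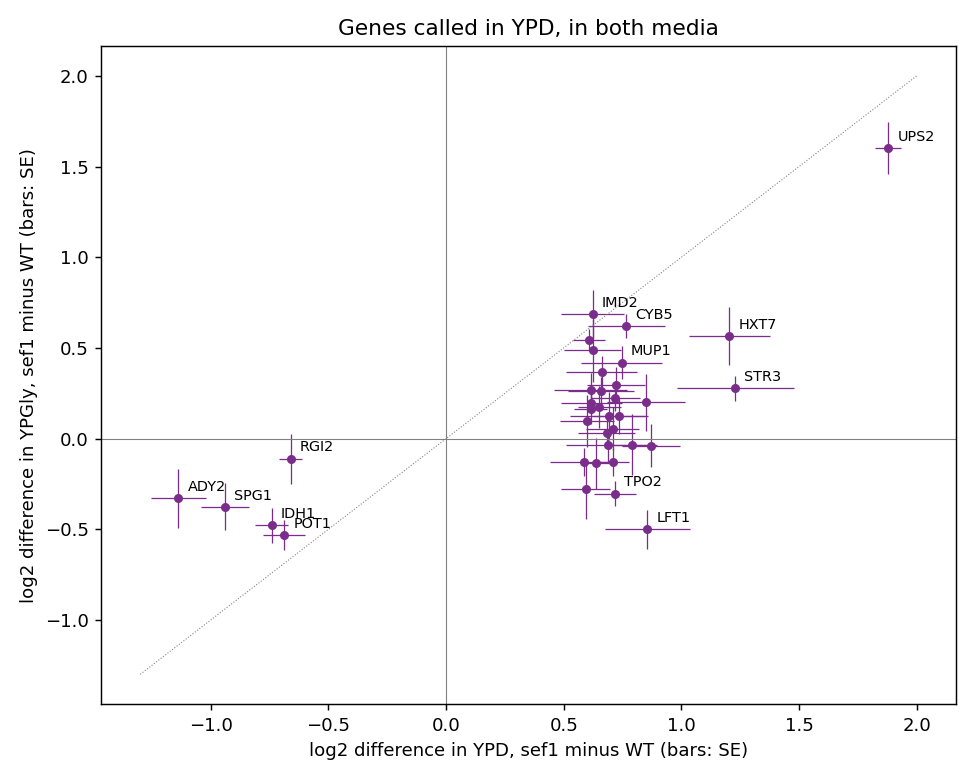
Log2 difference (sef1 minus WT) in YPGly against that in YPD for the called genes except SEF1 and YBL065W, with bars of 1 SE and a dotted line of equal differences. UPS2 lies near the line in both media, and most other genes higher in YPD lie close to 0 in YPGly.

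The strain that carries Sef1 fused to the activation domain of VP16 (SEF1-VP16) was grown in YPD too, but its comparison with WT uses the same 4 WT arrays and crosses slides, so its values are only set side by side. UPS2 differed from WT by 3.37 in SEF1-VP16 beside 1.88 in sef1, HAP4 by 1.62 beside 0.61, IDH1 by 3.06 beside −0.74, SPG1 by −1.49 beside −0.94 and HXT7 by −0.61 beside 1.20. The 8 ribosome synthesis genes differed by 1.18 to 1.42 in SEF1-VP16 beside 0.61 to 0.74 in sef1. YBL065W differed by −0.32 in SEF1-VP16 beside 3.62 in sef1. In YPGly, where both comparisons use the 4 WT arrays of that medium, the gene differed by 2.86 in SEF1-VP16 (7.26-fold, adjusted p = 4.2e-08) beside 4.23 in sef1.

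Brightness moved with part of these results. When the tested genes were split into 5 equal classes by mean level over the YPD arrays, the dimmest class had a median difference of 0.067. It held 13 of the 32 higher calls and 3 of the 6 lower calls. The 4 brighter classes had medians from −0.0013 to 0.038. In YPGly, where the rows of the slides were reversed, the genes of that class had a median of 0.0041. They need not be the dimmest genes in YPGly. With a minimum intensity of 1000 in either strain, 31 genes were called, 28 of them among the 38. The part of background in the calls of dim genes was not tested.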

How the data were processed

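Processed intensities of 8 arrays (scanner software Agilent Feature Extraction 10.5.1.1, per the submitters' processing notes) were deposited by the authors as 1 table per array, already background-corrected. The deposited log2 table of all arrays served as an alternative. Each of 6256 probes had 2 spots; spots marked as outliers (1 to 13 per sef1 array, 5 to 79 per WT array) were left out, the log2 intensities averaged and the array's 75th percentile subtracted. Probes with a mean intensity of 200 in at least 1 of the series' 6 groups were tested (5641). limma 3.58.1 in R 4.3.3 compared 4 with 4 arrays, with Benjamini-Hochberg adjustment over all tested probes. The methods' own test was an unpaired t-test. Names came from RefSeq R64, which matched 5756 probes; the array design names another build, so no coordinates are given. Peak lists are the study's ChIP-seq assignments, used for membership only. Named are all called genes, the neighbours of SEF1, the study's candidates, up to 4 members per list and the genes at the fold minimum. Comparison, lists and members were chosen with earlier results of these data known. The fit was tested on simulated data. The number of arrays limits the precision. The search for the Sef1 motif in promoters was not run, as no promoter sequence was used here.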

Additional observations from a re-analysis of the deposited data

Results flagged for a closer look

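The sef1 difference was called as differing between the media for 10 of the 38 called genes, SEF1 included. It was tested as the YPGly difference minus the YPD difference over 16 arrays (limma, adjusted over all tested genes). These include the YPD arrays on which the 38 genes were chosen. For SEF1 the value of −1.66 (adjusted p = 0.027) is no measure of a change, since the probe was well above background on 0 of 4 sef1 arrays in either medium. Among the other 9 the value was −1.36 for LFT1 (0.0067), −1.02 for TPO2 (0.00023), −0.91 for ATG41 (0.019), −0.87 for CUR1 (0.042), −0.84 for TYE7 (0.00064), −0.77 for RNR1 (0.025), −0.72 for GIC1 (0.042), −0.65 for RPA12 (0.036) and 0.61 for YBL065W (0.0023). The media lay on different slides, so medium and slide cannot be told apart.

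On 2 occasions 1 array stood apart from the other 3 of its group. FES1 read 1.54 on WT replicate 1, against 1.97 to 2.03 on the other WT arrays, and its call was lost without that array. HXT7 read 4.40 on sef1 replicate 4, against 4.93 to 5.03 on the other sef1 arrays, and its call held without it. Over the 94 groups examined chance flags about 1 in 20.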

How the results depend on the processing

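None of the 38 called genes changed direction in an alternative fit that tested it (20 fits for 28 genes, 19 for 9 genes and 18 for LFT1), and 15 kept the call at the 1.5-fold minimum in every such fit: SEF1, YBL065W, UPS2, ADY2, SPG1, IDH1, POT1, HXT7, ATG41, TYE7, RNR1, CHA1, CGR1, UTP15 and TPO2. The count of 38 became 20 with the methods' t-test (14 higher, 6 lower), 460 with no fold change minimum and 6 with a 2-fold minimum. It ran from 20 to 53 when 1 array was left out: 20 without sef1 replicate 2, 22 without sef1 replicate 3 or 4 and 23 without WT replicate 1. It was 28 with the array median as scale (22 higher), 31 after quantile normalization, 36 with normexp, for which the median spot signal was used, and 34 without a filter on dim probes. Among the 6 lower genes RGI2 missed the 1.5-fold minimum with normexp, and only SEF1 and ADY2 passed a 2-fold minimum. An intensity minimum of 1000, chosen after seeing the data, left 31 (4 lower, as SEF1 and ADY2 were not tested there). Of the 38 genes, 9 were called in YPGly in the same direction with no fold change minimum and 3 with 2-fold, against 5, and leaving out 1 array gave 4 to 6. The interaction count of 10 became 3 with a 2-fold minimum and ran from 5 to 11 without 1 array. It was 5 without sef1 replicate 2 in YPD and 6 without sef1 replicate 3 or WT replicate 1 in YPD or sef1 replicate 3 in YPGly. The cause of these changes was not tested. With the replicate block, 43 genes were called, all 38 among them, 5 in the same direction in YPGly and 8 with the interaction. The deviations of same-numbered sef1 and WT arrays correlated with r of 0.0014, 0.16, 0.53 and 0.43, so the number, which is also the slide column, did not pair all arrays.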
